A study of Homo sapiens with 6 samples.

Results

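This section describes 36 genes of the ATF4 and unfolded protein response pathways in human bronchial epithelial cells (HBECs, labelled HBE cells), an immortalized cell line, out of 61228 gene names in the deposited tables. The genes were chosen by name. The cells of every library were wild type and received CRE, an allergenic extract of cockroach, for 24 h. In 3 libraries they were also given VAF347, a small-molecule agonist of the aryl hydrocarbon receptor (AhR), which the study's methods put at 20 μM for this cell line, added before CRE. The comparison is therefore CRE + VAF347 (3 libraries) against CRE (3 libraries). None of the 6 libraries lacked CRE, so an effect of CRE itself was not measured. Of the 36 genes, 35 had enough counts for the test. The exception was *NUPR1*, a stress-induced transcriptional regulator, with 2, 0 and 0 counts with CRE and 1, 0 and 0 with CRE + VAF347. Both groups lay under the floor of detection of 3 counts, so no fold was computed for it.

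The unfolded protein response is the reaction of a cell to unfolded protein in the endoplasmic reticulum (ER). Its sensors PERK, IRE1 and ATF6 slow translation and raise chaperones and degradation factors. PERK and related kinases that sense lack of amino acids, heme stress or double-stranded RNA all phosphorylate the initiation factor eIF2α, which lowers translation in general but favours translation of the transcription factor ATF4. ATF4 in turn raises genes for amino acid synthesis and uptake, tRNA charging and feedback on the response. Airway epithelial cells, which secrete much protein, rely on these pathways. Because ATF4 is controlled largely at translation and IRE1 acts by splicing the *XBP1* message, mRNA levels per gene do not measure either step.

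The 6 libraries held 8873160 to 10750283 counts. The 8 epithelial markers summed to 3581 to 4412 TPM (a level scaled by transcript length and library total) with CRE and to 3561 to 3651 TPM with CRE + VAF347, while *TP63*, a marker of basal airway cells, was at or under 3 counts in every library. The 5 fibroblast markers, nearly all *COL1A1*, summed to 18.2 to 20.5 TPM and 14.5 to 18.02 TPM, and the 4 immune markers, nearly all *CD68*, to 21.2 to 24.6 TPM and 13.9 to 19.5 TPM. The 3 endothelial markers, mostly *CDH5*, summed to 7.31 to 7.92 TPM and 3.95 to 4.67 TPM. By edgeR, *KRT7* and *KRT19* of the epithelial markers fell, with log2 fold changes of -0.29 and -0.38 (adjusted p = 0.0257 and 0.0265). *CDH5* and *VWF* also fell, with -0.84 and -1.45 (adjusted p = 0.00119 and 0.0107). With an offset for GC content the keratins were not called, and no other marker was called by edgeR. *PTPRC* and *PECAM1*, which define leukocytes and endothelium, were at or under 3 counts in every library, and the part of these markers in the results was not tested. In bulk RNA, fewer cells of a kind and less RNA per cell cannot be told apart. CRE replicate 3 stood apart from the other CRE libraries. Its counts differed from theirs by a chi-square of 8.52 and 8.24 per gene, where CRE replicates 1 and 2 differed by 2.38, so values without it are given where it changed a result. The AhR target *CYP1A1* had 6, 8 and 5 counts with CRE and 454, 412 and 460 with CRE + VAF347.

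The promoter windows of RefSeq (GRCh38.p14, from 250 bases before to 50 bases after an annotated start) were found for 33 of the 36 genes. The 6 windows below are shown because they belong to the pair of genes that rose (*STC2* and *PPP1R15A*) and to ATF4 targets and ER chaperones that did not pass the test and whose windows hold the response element of their pathway. In the first pair the capitals mark the AhR core GCGTG on either strand, in the next pair the C/EBP-ATF response element TGATGCAA on either strand, and in the last pair the ER stress response element (CCAAT and CCACG at a fixed spacing) on either strand.
STC2: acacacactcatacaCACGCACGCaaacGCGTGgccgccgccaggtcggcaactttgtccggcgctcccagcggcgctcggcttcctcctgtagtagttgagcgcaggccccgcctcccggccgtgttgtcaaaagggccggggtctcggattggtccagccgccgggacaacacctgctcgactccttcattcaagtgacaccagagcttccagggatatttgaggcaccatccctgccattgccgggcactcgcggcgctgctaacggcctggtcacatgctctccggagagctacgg
PPP1R15A: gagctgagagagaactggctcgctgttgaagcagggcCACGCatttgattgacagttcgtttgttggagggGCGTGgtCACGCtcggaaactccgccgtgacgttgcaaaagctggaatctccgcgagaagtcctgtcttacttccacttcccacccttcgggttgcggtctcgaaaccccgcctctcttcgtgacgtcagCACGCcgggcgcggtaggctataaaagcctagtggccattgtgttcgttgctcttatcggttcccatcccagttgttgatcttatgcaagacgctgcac
CHAC1: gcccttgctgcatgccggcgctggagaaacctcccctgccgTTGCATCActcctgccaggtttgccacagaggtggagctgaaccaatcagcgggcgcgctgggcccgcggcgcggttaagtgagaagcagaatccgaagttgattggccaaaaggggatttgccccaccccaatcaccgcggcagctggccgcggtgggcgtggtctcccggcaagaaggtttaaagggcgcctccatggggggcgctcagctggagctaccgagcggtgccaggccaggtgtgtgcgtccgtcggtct
AARS1: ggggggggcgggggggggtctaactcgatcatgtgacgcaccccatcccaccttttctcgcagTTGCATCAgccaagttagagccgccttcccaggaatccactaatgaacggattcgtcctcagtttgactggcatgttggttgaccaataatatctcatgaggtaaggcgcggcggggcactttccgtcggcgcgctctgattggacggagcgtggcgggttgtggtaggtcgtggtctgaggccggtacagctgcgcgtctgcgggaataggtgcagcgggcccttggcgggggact
HSPA5: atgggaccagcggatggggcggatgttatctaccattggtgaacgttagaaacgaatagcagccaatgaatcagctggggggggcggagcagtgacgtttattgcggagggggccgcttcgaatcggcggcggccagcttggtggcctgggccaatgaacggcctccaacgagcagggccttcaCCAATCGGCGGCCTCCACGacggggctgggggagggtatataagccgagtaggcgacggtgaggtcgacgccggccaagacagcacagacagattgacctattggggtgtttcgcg
HSP90B1: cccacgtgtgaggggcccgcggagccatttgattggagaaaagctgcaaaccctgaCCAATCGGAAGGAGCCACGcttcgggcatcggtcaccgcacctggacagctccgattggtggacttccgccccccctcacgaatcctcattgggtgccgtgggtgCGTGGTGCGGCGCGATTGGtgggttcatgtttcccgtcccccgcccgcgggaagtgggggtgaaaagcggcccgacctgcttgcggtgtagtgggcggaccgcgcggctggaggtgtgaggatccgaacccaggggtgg
The *STC2* window, on the minus strand at chr5:173328365-173328664, held 3 AhR cores, and the *PPP1R15A* window, on the plus strand at chr19:48872171-48872470, held 4. That core is short and was found in 72.7% of the members with a window and in 40.6% of all 27305 genes with one. For each element, a gene counted if any of its windows held a match. The 27305 genes include genes not tested for expression here, and the shares among tested genes were not computed. The members with the most cores in a window were *TRIB3* with 6 and *VLDLR* with 5, which did not pass the test. Of the other windows shown, where the core is not marked, *CHAC1* and *AARS1* each held 1, *HSPA5* 0 and *HSP90B1* 2. The windows of *CHAC1* (plus strand, chr15:40953221-40953520) and *AARS1* (minus strand, chr16:70289457-70289756) each held 1 C/EBP-ATF element. Over the members, 4 genes held that element (*CEBPG*, *CHAC1*, *AARS1* and *HERPUD1*), or 12.1%, beside 1.08% of all genes. The ER stress response element was found once in the *HSPA5* window (minus strand, chr9:125241294-125241593) and at 2 positions in the *HSP90B1* window (plus strand, chr12:103930160-103930459). It was held by 5 members (*XBP1*, *HSPA5*, *HSP90B1*, *CALR* and *CRELD2*), or 15.2%, beside 0.0916% of all genes. The XBP1 site TGACGTGG was in the window of 0 members and of 0.927% of all genes. Matches of the AhR core can share letters with each other and with the CCACG end of the ER stress response element. Only exact matches of each element as written were counted, so a gene without a match may still hold a variant. A match is a description of letters, not of a bound site.

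To determine whether AhR activation moved the ATF4 and unfolded protein response genes in CRE-treated HBECs, each gene was tested with edgeR's quasi-likelihood test, with Benjamini-Hochberg adjustment over the 15373 genes tested. Only *STC2* and *PPP1R15A* rose, by 1.60-fold and 1.49-fold, and 0 members fell at an adjusted p under 0.05. The 33 other tested members did not pass. The 2 genes called are 5.71% of the 35 tested, near the 5.42% of all genes that were called in either direction. For rises alone, the background was 1.35% of all genes, and for falls 4.07%. Both genes also passed the study's threshold of 0.5 on the absolute log2 fold change. Past both thresholds the background was 2.21% of all genes, 0.501% higher and 1.71% lower. At an unadjusted p under 0.05, 4 members were higher and 5 lower, that is 11.4% and 14.3% of those tested, beside 8.87% and 11.9% of all genes. DESeq2's Wald test called *STC2* and *PPP1R15A* higher and 0 members lower.

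**Figure D1:**
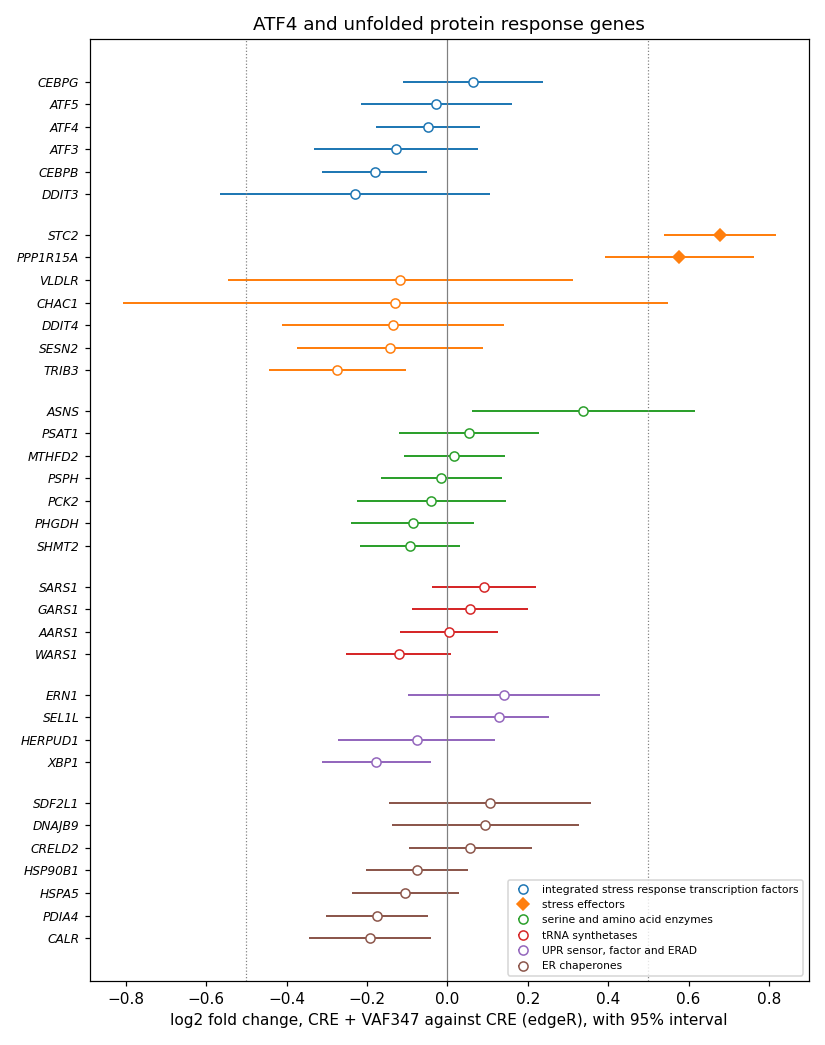
Log2 fold change of each of the 35 tested genes (horizontal axis, CRE + VAF347 against CRE, from edgeR) with its 95% interval as a bar, coloured by role. Filled diamonds mark the 2 genes at an adjusted p under 0.05, *STC2* at 0.68 and *PPP1R15A* at 0.58, open circles the 33 others, and dotted lines a log2 fold change of 0.5 in each direction.

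*STC2* encodes stanniocalcin-2, a secreted glycoprotein whose transcription ATF4 raises under ER stress. The gene (ENSG00000113739.11) lies on chromosome 5 of GRCh38 from 173314723 to 173328447 on the minus strand and overlaps no other annotated gene. Its levels were 72.4, 80.4 and 72.5 CPM (counts scaled to the normalized library size) with CRE and 120.4, 122.1 and 118.0 CPM with CRE + VAF347. The groups did not overlap, and each VAF347 library lay above each CRE library. The means were 75.1 ± 4.56 (SD, n = 3) and 120.2 ± 2.03 (SD, n = 3) CPM. This gave a log2 fold change of 0.68 (standard error 0.06, 95% interval 0.54 to 0.82, edgeR adjusted p = 0.000179). Without CRE replicate 3 it was 0.65. In TPM, *STC2* had 35.7, 36.8 and 43.1 with CRE and 55.0, 58.4 and 67.0 with CRE + VAF347. On log2(TPM + 1), limma gave a difference of 0.63 with an adjusted p of 0.0531, which missed the threshold. On that scale limma called 87 of 15952 genes in all, where edgeR called 833.

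*PPP1R15A* encodes GADD34, the inducible subunit that directs protein phosphatase 1 to eIF2α and so ends the translational arm of the response. The gene (ENSG00000087074.9) lies on chromosome 19 of GRCh38 from 48872212 to 48876059 on the plus strand and overlaps no other annotated gene. It had 38.6, 47.1 and 45.2 CPM with CRE and 60.9, 67.4 and 67.1 CPM with CRE + VAF347. The groups did not overlap here either, and the lowest value was that of CRE replicate 1. The means were 43.7 ± 4.46 (SD, n = 3) and 65.1 ± 3.68 (SD, n = 3) CPM. The log2 fold change was 0.58 (standard error 0.08, 95% interval 0.39 to 0.76, edgeR adjusted p = 0.00287). Without CRE replicate 1 the log2 fold change was 0.498, which is under the fold threshold, with an adjusted p of 0.00882. In TPM it had 18.2, 22.6 and 24.7 with CRE and 29.6, 32.8 and 33.7 with CRE + VAF347. Limma on log2(TPM + 1) gave 0.54 with an adjusted p of 0.140, so that on TPM this call was lost.

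**Figure D2:**
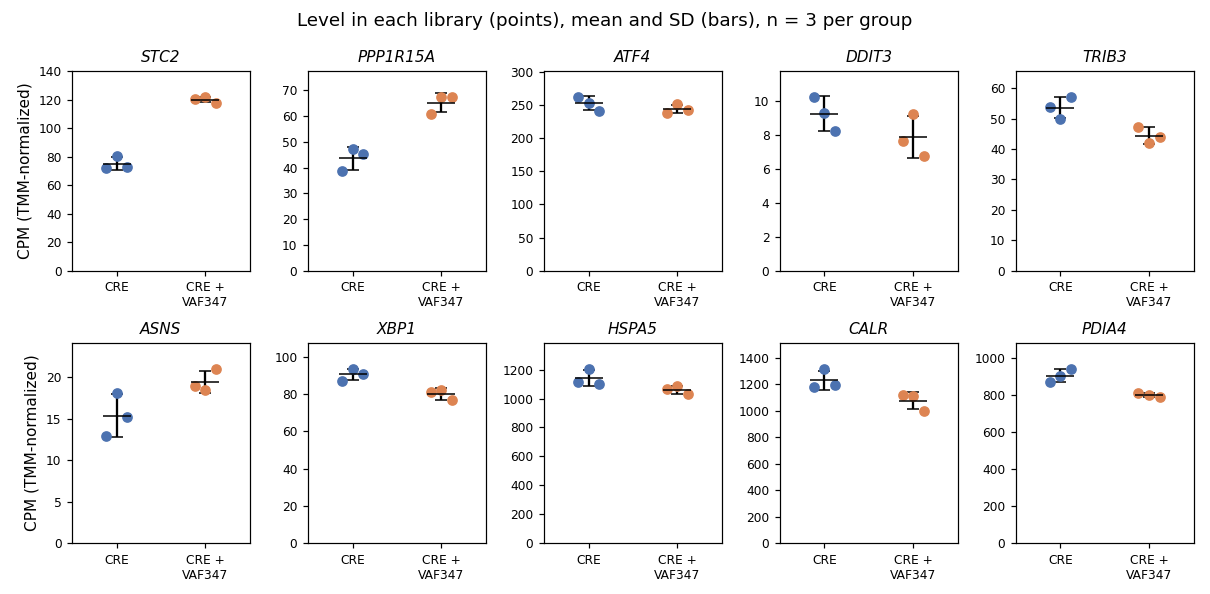
Normalized CPM (vertical axis, starting at 0) of 10 genes in each of the 3 CRE libraries (blue) and 3 CRE + VAF347 libraries (orange), with the mean as a horizontal bar and the SD as a vertical bar. For *STC2* the CRE libraries lie between 72.4 and 80.4 CPM and the VAF347 libraries between 118.0 and 122.1, whereas for *ATF4* and *DDIT3* the groups overlap.

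The transcription factors of the pathway did not pass the test, and 5 of the 6 tested had negative log2 fold changes. Their median was -0.09 beside 0.01 over all genes, of which 47.9% were negative. *ATF4*, on chromosome 22 from 39519695 to 39522683, had 262.2, 253.4 and 241.3 CPM with CRE and 238.2, 251.0 and 242.5 with CRE + VAF347. The groups overlapped, and the difference was -0.05 on the log2 scale (standard error 0.06, 95% interval -0.18 to 0.08, adjusted p = 0.686). *DDIT3*, which encodes CHOP, the factor tied to cell death under lasting ER stress, had 10.2, 9.32 and 8.22 CPM with CRE and 7.64, 9.25 and 6.78 with CRE + VAF347. Its groups overlapped, and at these levels the 95% interval of its log2 fold change of -0.23 ran from -0.57 to 0.11, so the interval reached past the fold threshold. *DDIT3* overlaps *MARS1* and *MBD6* on the other strand and *MIR616* and an unnamed gene on its own. *ATF5*, *CEBPB*, *VLDLR*, *SHMT2*, *MTHFD2*, *ASNS*, *PCK2*, *AARS1*, *WARS1*, *GARS1*, *ERN1*, *HSP90B1*, *CALR* and *CRELD2* also overlap genes on the other strand, and the use of strand in counting is not given in the sources used here.

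*CEBPB*, a basic leucine zipper factor that pairs with ATF4, had 99.0, 101.5 and 102.2 CPM with CRE and 90.1, 84.9 and 91.9 with CRE + VAF347. These groups did not overlap. The log2 fold change was -0.18 (edgeR adjusted p = 0.106). With an offset for the GC content of its transcripts, 66.2%, the log2 fold change of *CEBPB* was -0.08. The stress-induced factor *ATF3* had a log2 fold change of -0.13 and *ATF5*, a factor that like ATF4 is favoured when eIF2α is phosphorylated, -0.03. *CEBPG*, another partner of ATF4, had 0.06, which turned to -0.0063 with the GC offset.

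Among the stress effectors, the 5 besides *STC2* and *PPP1R15A* all had negative log2 fold changes and did not pass. *TRIB3*, a pseudokinase that dampens ATF4 and CHOP, came closest, with 53.7, 49.9 and 57.1 CPM with CRE and 47.3, 41.8 and 43.9 with CRE + VAF347. Its groups did not overlap, and its log2 fold change was -0.27 (standard error 0.08, edgeR adjusted p = 0.0665). With no filter on low counts its adjusted p was 0.0282. With the GC offset the log2 fold change of *TRIB3* was -0.19 (adjusted p = 0.221), and limma on log2(TPM + 1) gave an adjusted p of 0.506. *DDIT4* (REDD1), an inhibitor of mTORC1, had 119.7, 137.3 and 100.4 CPM with CRE and 118.6, 118.4 and 88.4 with CRE + VAF347. The groups overlapped, and the third library of each group was the lowest. *SESN2*, another stress-induced inhibitor of mTORC1, had 30.7 CPM in CRE replicate 3 and 23.3 to 26.2 CPM in the 5 other libraries, and a log2 fold change of -0.14. *VLDLR*, a lipoprotein receptor induced by ER stress, had 51.0 to 77.7 counts, and *CHAC1*, an enzyme that degrades glutathione, had 13 to 27 counts. At that depth the 95% interval of *CHAC1* ran from -0.81 to 0.55, and that of *VLDLR* from -0.55 to 0.31.

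Of the 11 serine, amino acid and tRNA synthetase genes, 0 were called by edgeR, by DESeq2 or by limma on TPM. By edgeR 6 had positive and 5 negative log2 fold changes, and the median was 0.0032. Of the 11, 1 was higher and 0 were lower at an unadjusted p under 0.05, where 8.87% of all genes were higher and 11.9% lower. The 95% interval lay within 0.5 of 0 on the log2 scale for 10 of the 11. The exception was *ASNS*, which makes asparagine and is a classical ATF4 target. It had 12.8, 18.1 and 15.1 CPM with CRE and 18.9, 18.4 and 21.0 with CRE + VAF347. The groups did not overlap, but CRE replicate 2 lay close to the VAF347 libraries, and the log2 fold change of 0.34 (standard error 0.13, 95% interval 0.06 to 0.62) did not pass, with an adjusted p of 0.157. When each library was left out in turn its adjusted p ran from 0.0742 to 0.416.

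In the serine pathway, *PHGDH*, which opens serine synthesis, had a log2 fold change of -0.09 (adjusted p = 0.525), with 111.9 to 130.9 CPM over the 6 libraries. The next enzymes, *PSAT1* and *PSPH*, had 0.05 (adjusted p = 0.746) and -0.02 (adjusted p = 0.929). *SHMT2*, which moves a carbon from serine to folate in mitochondria, had 178.7, 174.4 and 169.5 CPM with CRE and 164.8, 158.1 and 167.1 with CRE + VAF347, groups that did not overlap but differed by -0.09 on the log2 scale (adjusted p = 0.389). *MTHFD2*, the next mitochondrial folate enzyme, had a log2 fold change of 0.02 on counts and of -0.13 on log2(TPM + 1), neither past the threshold. *PCK2*, mitochondrial PEP carboxykinase, had -0.04.

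The 4 tRNA synthetases lay between -0.12 and 0.09. *AARS1*, for alanine, had a log2 fold change of 0.0032 with a 95% interval of -0.12 to 0.12, and its 6 libraries ran from 246.6 to 256.2 CPM. *SARS1*, for serine, and *GARS1*, for glycine, had 0.09 and 0.06. *WARS1*, for tryptophan, had -0.12 on counts (adjusted p = 0.276) and 0.05 on log2(TPM + 1), so its direction depended on the unit.

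Of the 7 ER chaperones, 0 were called by edgeR, by DESeq2 or by limma on TPM, with 3 positive and 4 negative log2 fold changes and a median of -0.08. With an unadjusted p under 0.05, 2 were lower and 0 higher, where 11.9% of all genes were lower and 8.87% higher. The 95% intervals of all 7 lay within 0.5 of 0. *HSPA5* (BiP), the major ER chaperone that holds the sensors inactive, had 1113, 1204 and 1101 CPM with CRE and 1063, 1086 and 1030 CPM with CRE + VAF347. The CRE + VAF347 libraries all lay below the CRE libraries, by -0.10 on the log2 scale (standard error 0.06, 95% interval -0.24 to 0.03, adjusted p = 0.359). *PDIA4*, a protein disulfide isomerase, had 872.4, 901.8 and 939.5 CPM with CRE and 812.5, 799.2 and 791.1 with CRE + VAF347. Its groups did not overlap, and the log2 fold change was -0.18 (adjusted p = 0.108). *CALR* (calreticulin), a lectin chaperone, had 1182, 1314 and 1192 CPM with CRE and 1118, 1109 and 1001 with CRE + VAF347. Here too the groups did not overlap, and the log2 fold change was -0.19 (adjusted p = 0.139). Without CRE replicate 3 *CALR* passed, at -0.21 with an adjusted p of 0.0315, and with no filter on low counts it passed with 0.0400. With the GC offset *CALR* was at -0.15 (adjusted p = 0.274), and limma on log2(TPM + 1) gave -0.13 (adjusted p = 0.683).

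*HSP90B1* (GRP94), the ER member of the HSP90 family, had -0.08 with groups that overlapped. The chaperones of low abundance, *SDF2L1*, *DNAJB9* (ERdj4) and *CRELD2*, had log2 fold changes of 0.11, 0.09 and 0.06 and overlapping groups. *SDF2L1* was lowest in CRE replicate 3, at 34.0 CPM against 46.3 and 48.2 in the other CRE libraries, and without that library its log2 fold change was -0.04.

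The sensor, factor and degradation genes of the response did not pass the test. *XBP1*, the factor activated by IRE1, had 87.2, 93.4 and 91.0 CPM with CRE and 81.3, 82.3 and 76.6 CPM with CRE + VAF347. Its groups did not overlap. The log2 fold change was -0.18 (standard error 0.06, 95% interval -0.31 to -0.04, adjusted p = 0.128), and the spliced and unspliced messages are summed in these values. *ERN1*, which encodes IRE1, had 0.14. *SEL1L*, the scaffold of the ER degradation ligase, had 122.1, 123.1 and 128.4 CPM with CRE and 133.1, 137.5 and 138.0 with CRE + VAF347. *SEL1L* differed by 0.13 on the log2 scale (adjusted p = 0.218). *HERPUD1*, another degradation factor, had -0.08.

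Over the 35 tested members the 3 libraries of each group did not overlap for 13, with CRE + VAF347 lower in 8 (*CEBPB*, *TRIB3*, *SHMT2*, *WARS1*, *XBP1*, *HSPA5*, *PDIA4* and *CALR*) and higher in 5 (*STC2*, *PPP1R15A*, *ASNS*, *SARS1* and *SEL1L*). This was 37.1% of the members, beside 27.3% of all genes. By direction it was 22.9% lower and 14.3% higher, beside 14.8% and 12.5% of all genes. The median log2 fold change of the members was -0.05, and 21 were negative and 14 positive, where 47.9% of all genes tested were negative. For 29 of the 35 the 95% interval lay within 0.5 of 0 on the log2 scale. The 6 others were *STC2*, *PPP1R15A*, *ASNS*, *DDIT3*, *VLDLR* and *CHAC1*. Within groups, CRE replicate 2 had the highest value of the CRE libraries for 21 of the 35 genes. Across 11110 genes with a mean log2 CPM over 3, Spearman's rho between log2 fold change and transcript GC content was -0.35, a description across genes that share the same libraries. The members had a median GC content of 52.2%, close to the 50.1% of all genes tested. *STC2* had 54.9% and *PPP1R15A* 58.8%, and with a GC offset their log2 fold changes were 0.72 and 0.64.

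Levels between genes were compared in TPM, which is scaled by transcript length. The ER chaperones *HSP90B1*, *CALR*, *HSPA5* and *PDIA4* were the 4 most abundant members, with means over the 6 libraries of 1127, 934.5, 625.3 and 426.4 TPM. *ATF4* came next with 304.9 TPM, and was the most abundant factor of the set. Of the 36 genes, 10 had at least 100 TPM, 21 had 10 to under 100 TPM, and 5 had under 10 TPM (*SESN2*, *ERN1*, *VLDLR*, *CHAC1* and *NUPR1*). The serine and synthetase genes ran from 18.1 TPM for *ASNS* to 179.8 TPM for *WARS1*. In this order, 26 of the 35 pairs of neighbours had ranges over the 6 libraries that overlapped, among them *HSP90B1* and *CALR*, and 9 pairs did not. *STC2* stood at rank 18 with 49.3 TPM and *PPP1R15A* at rank 26 with 26.9 TPM. *DDIT3* had 16.2 TPM and *CHAC1* 2.02 TPM.

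**Figure D3:**
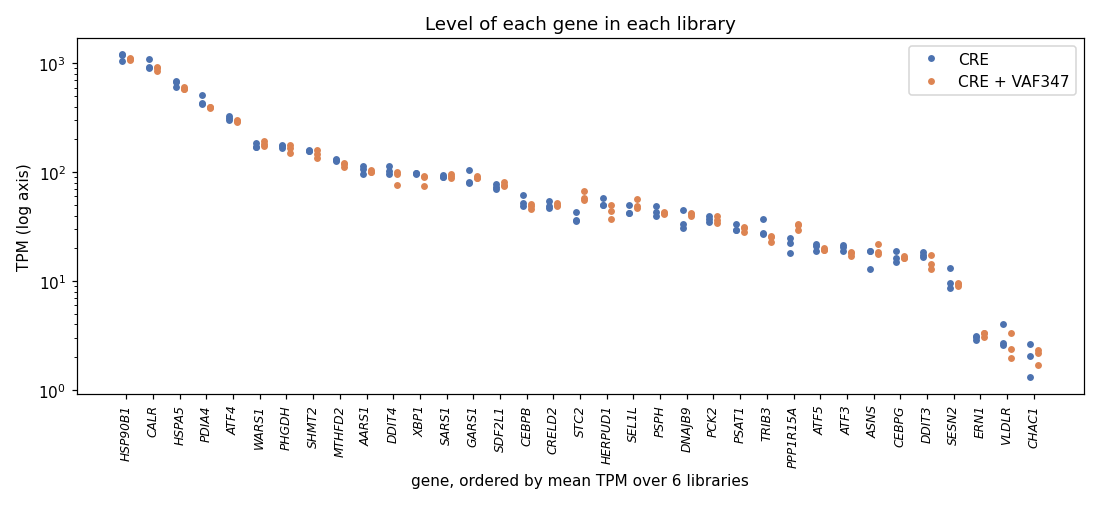
TPM of each of the 35 tested genes (log axis) in the 3 CRE libraries (blue) and 3 CRE + VAF347 libraries (orange), in order of the mean over the 6 libraries. The order runs from *HSP90B1* at 1127 TPM to *CHAC1* at 2.02 TPM. *STC2* stands at 49.3 TPM.

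Other genes of the same pathways were tested from lists of 128 genes, of which 126 had enough counts. In the upstream arm, 0 of 11 genes for the eIF2α kinases, the exchange factor eIF2B and the phosphatase were called by edgeR, DESeq2 or limma on TPM. At an unadjusted p under 0.05, 1 was higher and 1 lower by edgeR. *EIF2AK3*, which encodes PERK, was named after its value was seen, because it lay just outside the threshold. It had 38.4, 40.0 and 46.8 CPM with CRE and 35.2, 31.5 and 32.1 with CRE + VAF347. The log2 fold change was -0.34 (adjusted p = 0.0519). The groups did not overlap, and *EIF2AK3* was called lower with the GC offset (-0.41, adjusted p = 0.0281), with no filter, with a minimum of 10 counts and without CRE replicate 1. It was not called in the other alternatives, the replicate block with the GC offset included. The ATF6 arm had 0 of 8 genes called by the same 3 tools, with a median of 0.04, and 1 gene was higher at an unadjusted p under 0.05 by edgeR. Among 32 further ER chaperone and degradation genes 0 were called by these tools, 23 had positive and 9 negative log2 fold changes, and the median was 0.07. Of all genes tested, 47.9% had negative log2 fold changes. At an unadjusted p under 0.05, 9 of these 32 were higher and 0 lower, where 8.87% of all genes were higher and 11.9% lower. With no filter on low counts 2 of the 32 were called, *SELENOK* and *SELENOS*, both higher and named after their values were seen. That fit called 1586 of 28533 genes in all.

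Beyond the 4 synthetases above, 1 of 16 cytosolic tRNA synthetases fell and 0 rose. This was *VARS1*, for valine, with a log2 fold change of -0.30 (adjusted p = 0.0261), beside 4.07% of all genes that fell. *VARS1* was not called with the GC offset (adjusted p = 0.0940), by limma on log2(TPM + 1) (adjusted p = 0.412), or when any one CRE + VAF347 library was left out. Without CRE replicate 3, *FARSB* also rose, named after its value was seen. Of 13 further one-carbon and amino acid enzymes tested, 2 fell and 0 rose, where 4.07% of all genes fell and 1.35% rose. Without CRE replicate 3, and with no filter on low counts, 3 fell, *MTHFD1* being the other and named after its value was seen. *PYCR1*, which completes proline synthesis, had 61.1, 58.1 and 55.2 CPM with CRE and 45.7, 36.2 and 37.2 with CRE + VAF347. The log2 fold change was -0.55 (standard error 0.09, edgeR adjusted p = 0.00599). *MTHFD1L*, a mitochondrial folate enzyme, had a log2 fold change of -0.38 (adjusted p = 0.00568). Neither passed limma on log2(TPM + 1), with adjusted p of 0.0794 and 0.333.

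Of 17 further genes known as ATF4 targets, 5 rose and 3 fell by edgeR. The counts were 3 and 0 without CRE + VAF347 replicate 1 and also without CRE + VAF347 replicate 3, 4 and 2 without CRE + VAF347 replicate 2, and 5 and 1 without CRE replicate 1 or without CRE replicate 2. They were 5 and 1 with the GC offset, 5 and 2 by DESeq2, and 2 and 0 by limma on log2(TPM + 1). The pair with the largest rises by edgeR were the amino acid transporters *SLC7A5* (LAT1, large neutral amino acids) and *SLC7A11* (xCT, cystine), with log2 fold changes of 1.48 and 1.18. *SLC7A5* had 464.2, 475.8 and 559.1 CPM with CRE and 1349, 1392 and 1433 with CRE + VAF347. Their groups did not overlap. The pair with the largest falls were *GDF15*, a stress cytokine, and *JDP2*, a repressor of the AP-1 family, with log2 fold changes of -0.47 (adjusted p = 0.0257) and -0.46 (adjusted p = 0.0177). *SLC3A2*, the heavy chain that pairs with both transporters, was named after its value was seen. Its log2 fold change of 1.13 (standard error 0.06) differed from that of *SLC7A11* (standard error 0.12) by less than the standard error of the latter, and with the GC offset it was 1.17 against 1.09. The genes that passed limma on log2(TPM + 1) were *SLC7A5* (adjusted p = 0.00269) and *SLC3A2* (adjusted p = 0.00448). With the GC offset the adjusted p of *GDF15* was 0.0761. The list had a median of 0.02, and 47.1% of its tested genes were called, beside 5.42% of all genes and 5.71% of the members. The transporters were among the genes already known to change when the list was written. The share called was thus partly fixed in advance and is no test of ATF4 targets.

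**Figure D4:**
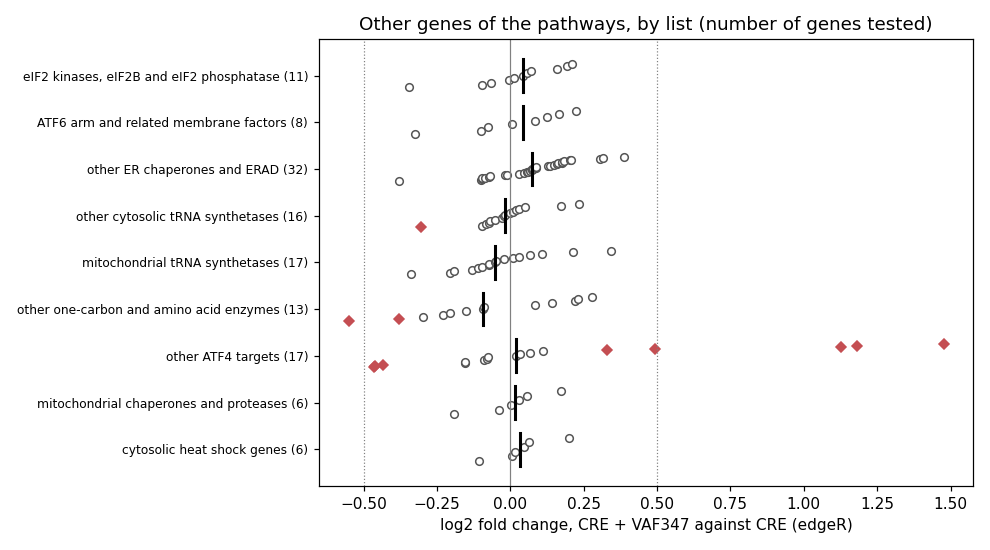
Log2 fold change (horizontal axis, CRE + VAF347 against CRE, from edgeR) of the 126 tested genes of 9 further lists, 1 point per gene, with the median of each list as a black bar. Red diamonds mark the 11 genes at an adjusted p under 0.05, of which 8 are among the other ATF4 targets, and dotted lines mark a log2 fold change of 0.5 in each direction. The transporters among the other ATF4 targets were already known to change when that list was written.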

How the data were processed

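RNA-seq was performed by the study on 6 HBEC libraries (3 CRE, 3 CRE + VAF347) with poly(A) enrichment and 2 × 150 bp paired-end sequencing. The authors estimated the expected counts per gene with Salmon, and deposited them by gene symbol with no depth scaling, together with TPM from the same quantification. The deposited TPM were used for levels and as an alternative. The labels name hg38. The Salmon version, annotation and use of strand are not given in the sources used here. All 61228 gene names were found in GENCODE v44, which gave positions and GC content on GRCh38. A deposited table of the authors' own fold changes and p-values was not used.

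Counts were rounded (14.5% were not whole, tolerance 0.0005) and tested by quasi-likelihood with edgeR 4.0.16 under R 4.3.3, after filterByExpr and TMM, with Benjamini-Hochberg adjustment. Standard errors are the log2 fold change divided by the root of the F statistic, and 95% intervals use the t distribution of the fit. Group labels come from the sample titles, and nothing states that replicates were separate cultures, so p-values measure the spread between these libraries. Exact permutation of 3 against 3 cannot go below 0.1. A gene was said to rise or fall at an adjusted p under 0.05. Alternatives were DESeq2 1.42.0, limma 3.58.1 on log2(TPM + 1) and log2(TPM + 0.1), other filters and scaling, a GC offset, the replicate number as a block, and leaving out each library. The edgeR, GC offset, DESeq2 and limma fits were tested on simulated data first. The genes changed in them were drawn from those with a mean log2 CPM over 3, a level that *CHAC1* and *VLDLR* did not reach. Of genes changed by 1 and by 0.6 on the log2 scale, edgeR recovered 100 of 100 and 89 of 100. There edgeR made 18 false calls, DESeq2 17 and limma 11. The simulated counts held no GC trend, so they could not test whether the GC offset corrects one. Depth was 8873160 to 10750283 counts per library. The members, lists and tests were chosen with earlier results of these data known. All members were named. From the further lists, genes past the test were named, or where over 4 passed, the 2 with the largest change in each direction. Other names are said to be chosen after their values were seen. Floors cover counting error only.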

Additional observations from a re-analysis of the deposited data

How the results depend on the processing

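The rises of *STC2* and *PPP1R15A* kept their direction under all 16 alternatives, with log2 fold changes of 0.63 to 0.73 and 0.50 to 0.64. They were called in each count-based fit. With limma on TPM, at either pseudocount or with no filter, 0 members were higher at an adjusted p under 0.05 or past both thresholds, and limma called 32 to 87 genes in all. With no filter on low counts 2 members were lower (*TRIB3* and *CALR*), and 1586 of 28533 genes were called in all. When each library was left out, 0 to 1 members were lower (*CALR*, without CRE replicate 3), the number of genes called ran from 305 to 1287, and 1 to 2 members were higher past both thresholds (1 without CRE replicate 1), and the median of the members ran from -0.084 to -0.021, the first without CRE + VAF347 replicate 1. The median of the ER chaperones moved from -0.08 to -0.13 with the GC offset and to -0.13 with the replicate block and the GC offset. The labels give the replicate numbers no shared origin, and same-numbered libraries deviated together only weakly (r of 0.05, 0.03 and 0.02 over 15373 genes), although each library correlated best with its own number. With the replicate block 2 members were higher and 0 lower, the same genes as without it, and 726 genes were called in all. Members near 0 changed sign without being called, and the cause was not tested. With the GC offset, and with it and the replicate block, these were *ATF5* (0.055 and 0.056), *CEBPG* (-0.0063 and -0.0057), *PSPH* (0.0062 and 0.0062), *MTHFD2* (-0.050 and -0.050) and *PCK2* (0.031 and 0.032). On log2(TPM + 1), with and without the filter, and on log2(TPM + 0.1), they were *CEBPG* (-0.016 in each), *CHAC1* (0.058, 0.058 and 0.096), *PSAT1* (-0.016 in each), *MTHFD2* (-0.13 in each), *AARS1* (-0.050, -0.050 and -0.051) and *WARS1* (0.052 in each). With a library left out, ranges that crossed 0 were those of *ATF5* (-0.071 to 0.018), *PSPH* (-0.046 to 0.0038), *MTHFD2* (-0.0083 to 0.040), *PCK2* (-0.10 to 0.041), *CHAC1* (-0.32 to 0.17), *AARS1* (-0.014 to 0.012), *DNAJB9* (-0.0014 to 0.21) and *SDF2L1* (-0.039 to 0.20). Depth limits *CHAC1*, *VLDLR* and *NUPR1* most.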

Other observations

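The mitochondrial counterparts of these genes were measured in the same libraries. Of 17 mitochondrial tRNA synthetases, 0 were called by edgeR, 11 had negative and 6 positive log2 fold changes, and the median was -0.05. Of all genes tested, 47.9% had negative log2 fold changes. At an unadjusted p under 0.05, 2 of the 17 were higher and 2 lower, where 8.87% of all genes were higher and 11.9% lower. Of 6 mitochondrial chaperone and protease genes, which mark the mitochondrial unfolded protein response, 0 were called and the median was 0.01. At an unadjusted p under 0.05, 1 of these was lower, *LONP1*, with -0.19 (adjusted p = 0.105), named after its value was seen. Of 6 cytosolic heat shock genes 0 were called, with a median of 0.03, and at an unadjusted p under 0.05 *HSPH1*, also named after its value was seen, had 0.20 (adjusted p = 0.0854). DESeq2 and limma on TPM also called 0 genes of these 3 lists, and without CRE replicate 3 edgeR called *HSPH1* higher.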
